A study of Mus musculus with 39 samples.

Results

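The immediate-early response genes examined here were Fos, Fosb, Junb, Egr1, Egr2, Egr3, Atf3, Ier2, Nr4a1 and Dusp1, which are 10 of the 29411 gene names on the arrays. They were found by their gene name in each array file, and all of their probes were kept. The genes were selected on these same arrays because their levels separate 6 arrays from the other 33, so the separation is described below without a test. It chose the genes and is no finding in itself.

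RNA of subcutaneous adipose tissue from C57BL/6J mice, which entered the experiment at the age of 3 to 4 weeks, was hybridised to 39 Agilent 1-colour arrays. The groups were a low-fat control diet with 10% of calories from fat (LFC, 10 arrays), a high-fat diet with added sucrose and 60% of calories from fat (HFC, 11 arrays), and that high-fat diet with 5, 20 or 75 µg of the botanical formulation KAL-1 (HF5, HF20 and HF75, 6 arrays each). All diets have 6 arrays between Week 3 and Week 18, spaced by 3 weeks. LFC and HFC have arrays for Day 6, Day 10, Day 14 and Week 0 as well, and HFC has one for Day 1. The labels name no genetic alteration. Each diet had 1 array per time point. How many mice stand behind an array is not given, so the p-values below measure the spread between arrays, which may be partly technical.

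Immediate-early genes are transcribed within minutes of a stimulus from factors that the cell already holds, without new protein synthesis. Mitogen-activated protein kinases, serum response factor with its ternary complex partners, and CREB carry the signal to their promoters, and their mRNAs are short-lived, so their levels follow a stimulus closely. Fos, Fosb and Junb encode subunits of the AP-1 transcription factor. Egr1, Egr2 and Egr3 encode zinc finger factors, of which Egr2 takes part in adipocyte differentiation. Atf3 is a stress-induced factor of the ATF/CREB family, Ier2 a nuclear protein of the early response, Nr4a1 an orphan nuclear receptor, and Dusp1 a phosphatase that switches off the mitogen-activated protein kinases.

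Levels below are log2 values relative to the 75th percentile of the array, so a level of 0 is that percentile. Between 49.3% (HF75 of Week 3) and 87.8% (HF20 of Week 15) of the spots were well above background. On HF20 of Week 15, 4936 spots were flagged as outlying, against 474 at most elsewhere (HFC of Day 1). The arrays lay on 36 slides scanned on 14 days. In the deposited table of ratios, the Week 12 columns of HF5 and HF20 each followed the array labelled as the other diet, with a correlation over probes of 0.999 against 0.666 and 0.663 for the array of their own label. The labels of the arrays were kept, and the exchange was run as an alternative. The 8 adipocyte markers were well above background on all 39 arrays.

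RefSeq windows upstream of the start site (GRCm38.p6) were available for 7 of the 10 genes, with several for Egr2, and the 250 bases before the start were searched on both strands. TGACG, the core of the sites that CREB and ATF proteins bind, was in a window of all 7 genes (Fos, Fosb, Junb, Egr2, Atf3, Nr4a1 and Dusp1), against 17.8% of all 32851 windows and 19.8% of 27025 gene symbols. The full palindrome TGACGTCA, which contains it, was in the window of Dusp1, against 1.55% of windows. A CArG box, the element of serum response factor, was in windows of Egr2, against 1.47% of windows and 1.62% of gene symbols. The Egr2 window chr10:67535249-67535498 held no match of any kind. TATAAA was in the window of Fos, against 12.4%, and GCGNGGGCG, the site of EGR proteins, was in those of Fosb and Nr4a1, against 4.7%. These matches are descriptions of the letters and not measured binding. The 5 sequences below are shown because they hold every kind of element named, with capitals for every match.
Fos, chr12:85473640-85473889, plus strand: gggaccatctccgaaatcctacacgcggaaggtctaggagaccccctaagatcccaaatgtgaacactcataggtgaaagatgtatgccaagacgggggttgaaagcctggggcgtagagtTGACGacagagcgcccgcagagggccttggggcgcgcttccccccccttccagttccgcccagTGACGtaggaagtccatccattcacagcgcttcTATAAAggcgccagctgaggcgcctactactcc
Fosb, chr7:19310046-19310295, minus strand: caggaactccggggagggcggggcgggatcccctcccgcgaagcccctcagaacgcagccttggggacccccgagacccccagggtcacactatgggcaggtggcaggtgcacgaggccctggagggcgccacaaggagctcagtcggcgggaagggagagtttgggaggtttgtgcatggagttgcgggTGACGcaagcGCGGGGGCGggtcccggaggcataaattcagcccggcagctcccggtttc
Egr2, chr10:67537619-67537868, plus strand: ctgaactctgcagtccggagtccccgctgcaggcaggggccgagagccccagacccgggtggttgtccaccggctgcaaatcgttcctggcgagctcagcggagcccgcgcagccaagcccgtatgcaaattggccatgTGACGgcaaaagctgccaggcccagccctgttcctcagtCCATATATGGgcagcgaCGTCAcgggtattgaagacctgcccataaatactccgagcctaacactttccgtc
Nr4a1, chr15:101266596-101266845, plus strand: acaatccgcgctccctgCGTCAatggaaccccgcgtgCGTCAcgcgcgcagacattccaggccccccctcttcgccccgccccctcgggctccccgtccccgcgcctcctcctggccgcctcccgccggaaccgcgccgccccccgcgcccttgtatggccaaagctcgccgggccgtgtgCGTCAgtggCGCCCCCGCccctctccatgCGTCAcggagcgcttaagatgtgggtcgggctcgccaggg
Dusp1, chr17:26508473-26508722, minus strand: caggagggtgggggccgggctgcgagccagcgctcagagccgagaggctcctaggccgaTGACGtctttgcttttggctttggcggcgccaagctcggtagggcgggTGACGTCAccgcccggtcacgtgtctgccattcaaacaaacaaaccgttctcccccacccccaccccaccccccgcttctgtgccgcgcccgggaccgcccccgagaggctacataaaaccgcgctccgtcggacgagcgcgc
In the Fos sequence TATAAA began 33 bases before the start site and TGACG 129 and 66 bases before it. In the Egr2 sequence the CArG box began 72 bases before the start site, between 2 TGACG matches of opposite strand. The Nr4a1 window held 4 copies of TGACG on the minus strand, while the Dusp1 window held the palindrome and 1 further TGACG.

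The mean level over the 10 genes left a wide gap between 2 sets of arrays. The 6 lowest were HFC of Day 10 (-1.22), LFC of Day 6 (-1.18), LFC of Week 12 (-1.11), HFC of Day 6 (-1.09), HFC of Day 1 (-0.54) and HF75 of Week 3 (-0.37). The next array, LFC of Week 3, was at 3.08, so the last inside and the first outside were 3.45 apart, and the highest, HFC of Week 15, was at 4.57. Of the 6, 3 were HFC, 2 LFC and 1 HF75, and none was HF5 or HF20. Both arrays of Day 6 and the single array of Day 1 were among them, with 1 of 2 at Day 10, 1 of 5 at Week 3 and 1 of 5 at Week 12. Of the 6, 3 were the only array of their scan day, so that scan day and level cannot be told apart for them, and the other 3 shared a scan day with arrays of the higher set.

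**Figure D1:**
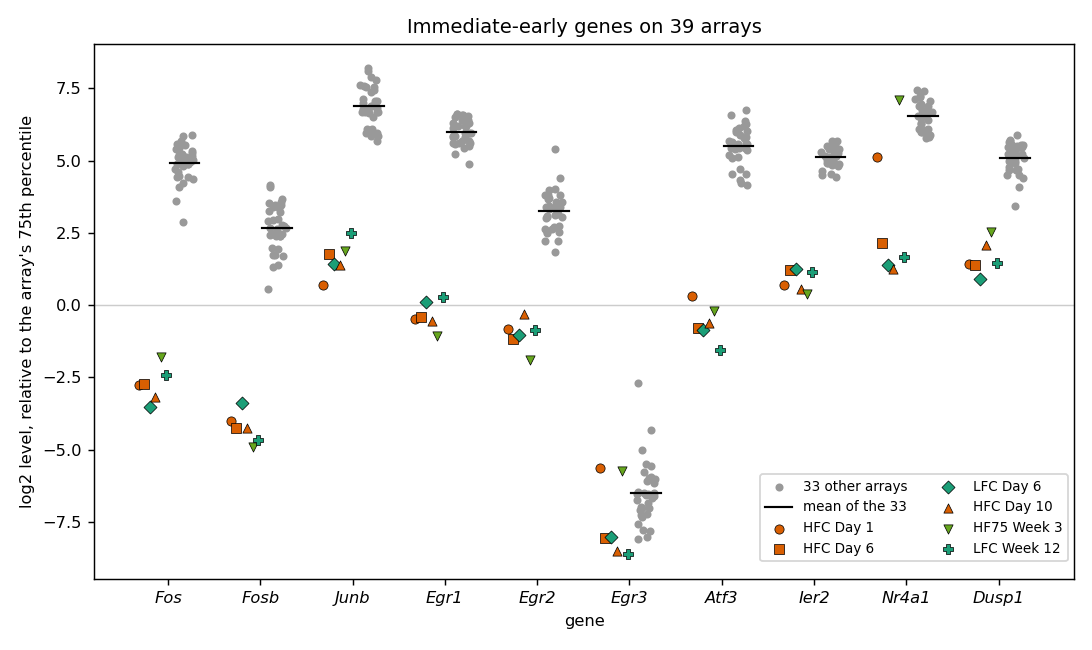
Level of each immediate-early gene on the 39 arrays (log2, relative to the 75th percentile of the array). Coloured symbols are the 6 arrays with the lowest mean over the genes, grey points the 33 others, and black bars the mean of the 33. The sets do not overlap for 8 genes, while Nr4a1 on HF75 of Week 3 (7.11) lies within the range of the 33 and Egr3 overlaps.

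Fos showed the widest measured separation of the 10 genes. Junb, Egr1, Atf3 and Nr4a1 had saturated spots on some of the 33 arrays, so the rank is partly against their ceiling. Its level was -3.53 on LFC of Day 6, -3.19 on HFC of Day 10, -2.75 on HFC of Day 1, -2.74 on HFC of Day 6, -2.41 on LFC of Week 12 and -1.79 on HF75 of Week 3. On the 33 other arrays it ran from 2.88 (HFC of Week 3) over a median of 5.00 to 5.89 (HFC of Week 15). The means were -2.73 ± 0.61 (SD, n = 6) and 4.91 ± 0.63 (SD, n = 33), a difference of 7.64 on the log2 scale or 200.1-fold, and no array of one set reached the other. Fosb, which forms the same kind of dimer with JUN proteins, was at -4.92 to -3.39 on the 6 arrays and at 0.57 to 4.15 on the 33. Its means of -4.24 ± 0.53 and 2.68 ± 0.82 differed by 6.92, and on HF75 of Week 3 the probe was not well above background. Junb, a partner of both, was at 0.68 to 2.51 on the 6 and at 5.66 to 8.19 on the 33, with a difference of 5.26. Its spot was saturated on 25 of the 33 arrays and on none of the 6, so this difference is measured against the ceiling of the scanner on most arrays.

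The zinc finger genes split between Egr1 and Egr2, which separated the arrays, and Egr3, which was mostly not measured. Egr1 was at -1.06 to 0.28 on the 6 arrays and at 4.89 to 6.62 on the 33, with means of -0.35 ± 0.48 and 6.00 ± 0.44 and a difference of 6.35, or 81.7-fold, with saturation on 8 of the 33. Egr2 was at -1.91 to -0.32 on the 6 and at 1.85 to 5.39 on the 33. The means of Egr2 were -1.02 ± 0.52 and 3.25 ± 0.71, 4.26 apart, or 19.2-fold. Egr3 was well above background on 7 of the 39 arrays, 1 of the 6 (HFC of Day 1) and 6 of the 33, and its range of -8.62 to -5.63 on the 6 lay across the -8.07 to -2.70 of the 33. No size is drawn from Egr3.

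Atf3 and Ier2 also separated the arrays without overlap. Atf3 was at -1.56 to 0.31 on the 6 arrays and at 4.16 to 6.76 on the 33, and its means of -0.62 ± 0.63 and 5.51 ± 0.66 were 6.14 apart, or 70.3-fold, with saturation on 1 of the 33. Ier2 was at 0.40 to 1.24 on the 6 and at 4.42 to 5.68 on the 33, with means of 0.87 ± 0.37 and 5.12 ± 0.32 and a difference of 4.25, or 19.0-fold.

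Dusp1, the phosphatase that ends the kinase signal, had the narrowest gap among the genes without overlap. It was at 0.90 on LFC of Day 6, 1.37 on HFC of Day 6, 1.43 on HFC of Day 1, 1.44 on LFC of Week 12, 2.07 on HFC of Day 10 and 2.54 on HF75 of Week 3. Its lowest array outside the 6, LFC of Week 18, was at 3.44, which is 0.90 above the highest of the 6, and the range of the 33 went to 5.87. The means were 1.63 ± 0.58 and 5.09 ± 0.52, a difference of 3.46, or 11.04-fold.

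Nr4a1 did not follow the other genes on 2 arrays. It was at 1.24 on HFC of Day 10, 1.38 on LFC of Day 6, 1.66 on LFC of Week 12 and 2.15 on HFC of Day 6, but at 5.12 on HFC of Day 1 and at 7.11 on HF75 of Week 3. The 33 others ran from 5.79 to 7.43, so HF75 of Week 3 was inside their range and HFC of Day 1 was below it by less than the distance to the other 4. The spot was saturated on 16 of the 33 arrays and on none of the 6. Skeletal muscle markers had their highest mean levels of all 39 arrays on the same 2 arrays, with 7.36 on HF75 of Week 3 and 6.21 on HFC of Day 1, against 5.96 at most on the 33. The part of muscle RNA in the level of Nr4a1 was not tested.

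Different probes of a gene gave the same separation except 1 of the 3 for Ier2. Dusp1 differed by 3.46 and 3.54 with its 2 probes, and Junb by 5.26 and 4.99, the second probe being saturated on 20 arrays. The Ier2 probes gave 4.25, 4.13 and 2.16. The last of these correlated with the first at 0.78 over the 39 arrays, where the second reached 0.97.

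Of the 22720 genes well above background on at least 6 arrays, 379 (1.67%) were higher on every one of the 33 than on any of the 6, and 489 (2.15%) were lower, while 8 of the 10 immediate-early genes were in the first set and 0 in the second. The rule used this contrast, so nothing is read from the 8. The median difference over all 22720 genes was 0.00 and the highest 1% began at 4.24.

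The 33 arrays were set apart by a high mean of these same genes, so a smaller spread and weaker correlations than over all 39 are fixed by the choice, and nothing is read from that contrast. The SD over the 33 was between 0.32 (Ier2) and 0.82 (Fosb) for the 9 genes other than Egr3, beside a median SD of 0.73 over all tested genes. Ier2 varied less than all but 4.65% of them. Over all 39 arrays the 36 pairs of these 9 genes had correlations from 0.69 to 0.99 with a median of 0.90, and over the 33 from -0.32 to 0.70 with a median of 0.26. Fosb with Dusp1 was the closest pair over the 33 (0.70), followed in the case of Dusp1 by Fos (0.61). Egr2 stood alone, with correlations between -0.32 and 0.17 to the other 8. The correlations are descriptions over arrays that share the same scaling, and genes whose spots saturate share the ceiling as well.

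The level of Junb moved with the brightness of the array among the 33. It correlated at -0.97 with the log2 75th percentile of the array, and its signal before scaling had an SD of 0.24, against 0.69 after it. For Nr4a1 the correlation was -0.61, and for Fos, which was saturated on none, it was 0.29. The part of array brightness in the differences of Junb between diets or weeks was not tested.

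**Figure D2:**
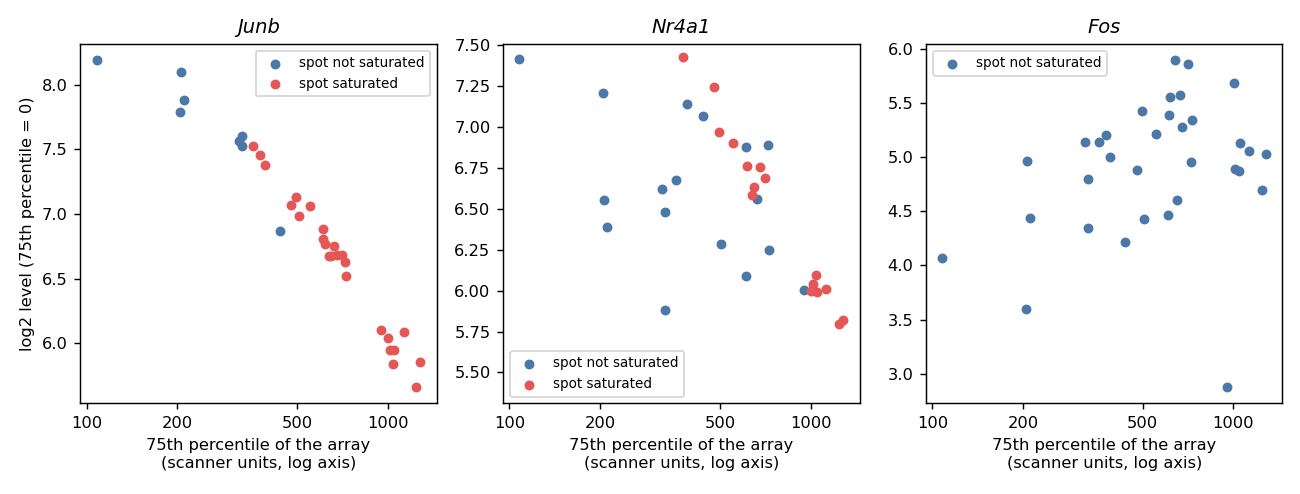
Level of Junb, Nr4a1 and Fos (log2) against the 75th percentile of the array in scanner units (log axis) on the 33 higher arrays, with saturated spots in red. Junb is lower on brighter arrays and saturated on 25, while Fos shows no saturated spot.

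By diet, the levels on the 33 arrays overlapped for every gene. Mean Fos was 4.67 in LFC (SD 0.73, n = 8), 4.84 in HFC (SD 0.89, n = 8), 4.92 in HF5 (SD 0.30, n = 6), 5.02 in HF75 (SD 0.40, n = 5) and 5.21 in HF20 (SD 0.51, n = 6). Neighbours in that order differed by at most 0.19, below the SD of 0.64 within diets. Mean Fosb ran from 2.19 in LFC to 3.04 in HF20, and mean Atf3 from 5.30 in LFC to 6.01 in HF20. Mean Dusp1 had LFC at the lower end too, with 4.73 (SD 0.76) against 5.30 in HFC (SD 0.40). Mean Egr2 ran the other way, from 3.07 in HF5 to 3.39 in LFC. For none of the 10 genes did neighbouring diets differ by more than the SD within diets. The lowest and highest diet means were further apart than that SD for 6 genes, with 0.92 against 0.66 for Junb (HFC and HF20) and 0.86 against 0.80 for Fosb (LFC and HF20), and for Atf3, Dusp1, Egr1 and Nr4a1 by less than 0.1 on the log2 scale.

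By time point, the lowest mean on the 33 arrays fell at Day 10, a single array, for 5 genes (Fos, Fosb, Egr1, Ier2 and Dusp1), at Week 0 for 4 (Junb, Egr3, Atf3 and Nr4a1) and at Week 9 for Egr2. Fos was lowest at Day 10 (4.21, 1 array) and highest at Week 0 (5.41 ± 0.39, n = 2). Dusp1 was also lowest at Day 10 (4.49) and highest at Week 6 (5.54 ± 0.11, n = 5), while Egr2 was lowest at Week 9 (2.62 ± 0.74, n = 5) and highest at Day 10 (4.02). Single arrays stood out for single genes: HFC of Week 3 had the highest Egr2 (5.39) and the lowest Fos (2.88) of the 33, and LFC of Week 18 the lowest Dusp1.

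**Figure D3:**
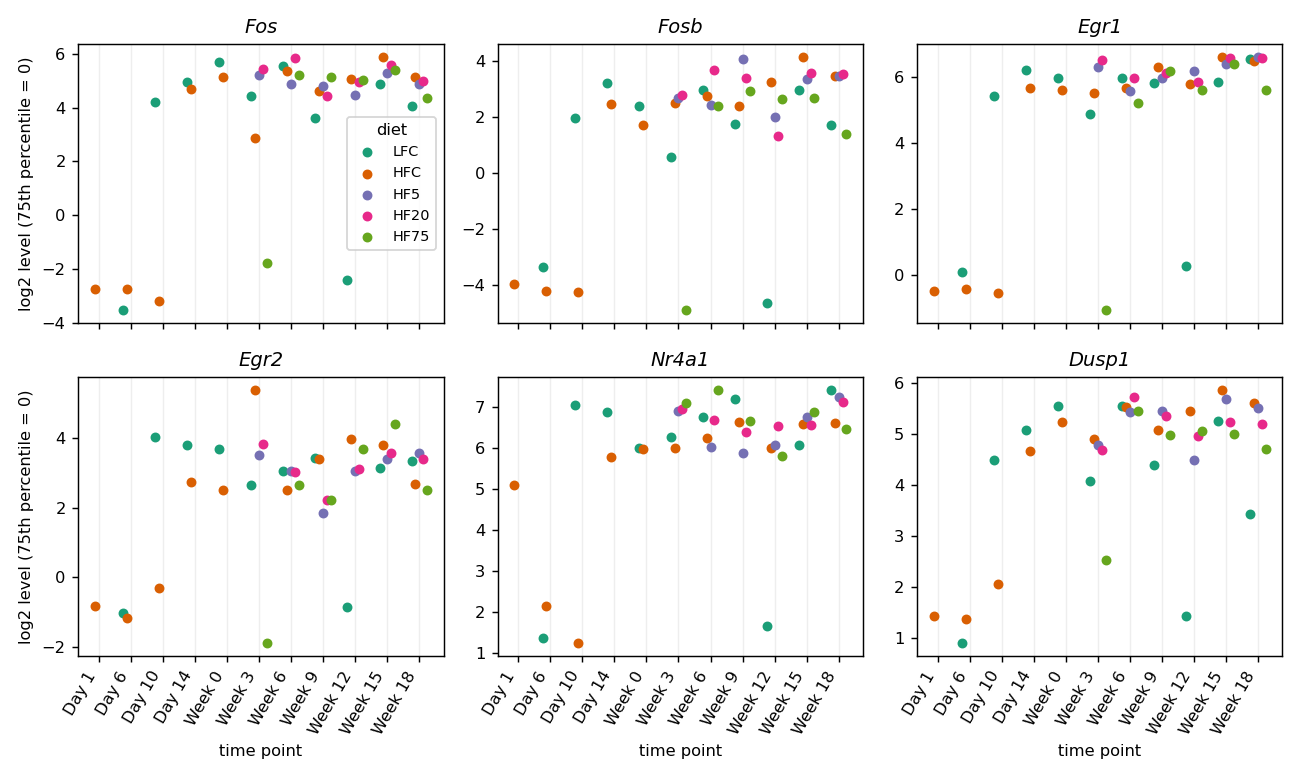
Level (log2) of 6 immediate-early genes on each array by time point, coloured by diet. Low arrays appear at Day 1, Day 6, Day 10 (HFC), Week 3 (HF75) and Week 12 (LFC), while Nr4a1 is not low on HF75 of Week 3 (7.11).

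For the effect of the high-fat diet, HFC was compared with LFC over the 10 time points they share. By limma, the adjusted p was under 0.05 for 0 of 19876 genes (0%), while 1165 (5.86%) had an unadjusted p under 0.05. Neither set held any of the 9 immediate-early genes tested. Their differences ran from -0.47 (Junb, SE 0.63) to 0.56 (Dusp1, SE 0.48), with a median of 0.03 beside -0.04 over all genes. With scan day as the block in place of the time point, the differences were -0.86 for Fos, -0.67 for Egr1, -0.75 for Atf3, -1.07 for Junb and Nr4a1 and 0.14 for Dusp1, and none passed. Those values average opposite extremes. At Day 10 all 9 genes were lower in HFC, with differences from -7.41 (Fos) to -2.42 (Dusp1), and at Week 12 all 9 were higher, with differences from 3.58 (Junb) to 7.90 (Fosb). At Day 6, where both arrays were low, the differences were between -0.85 and 0.79. Egr3 was well above background on too few arrays to enter these fits. Without the filter it did not pass in any comparison, with limma adjusted p values of 0.594 or more.

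**Figure D4:**
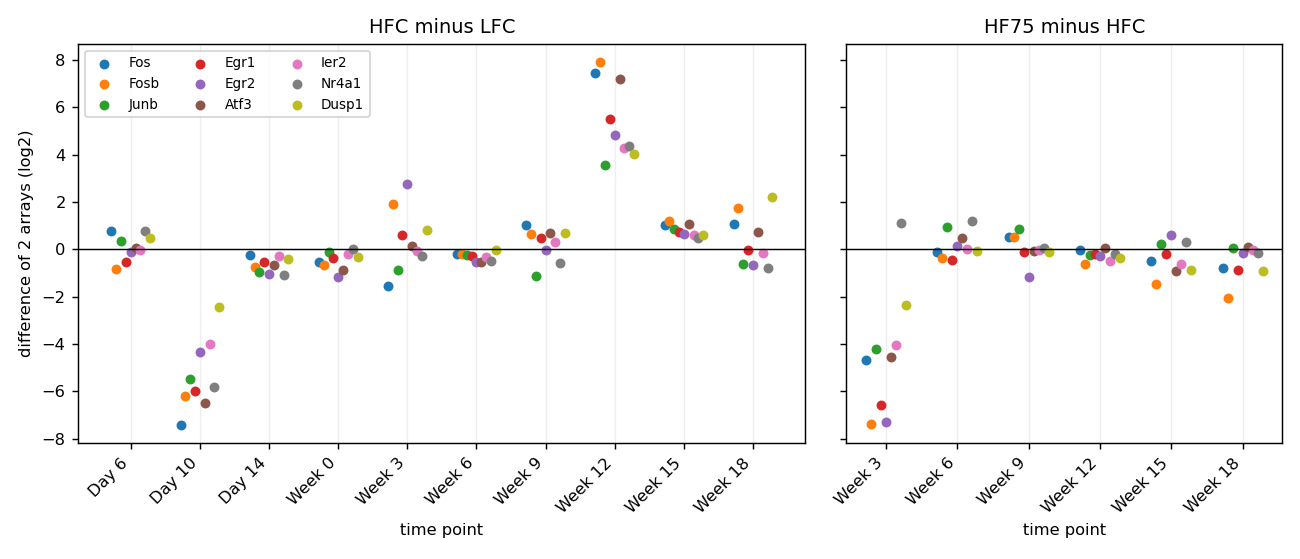
Difference between 2 arrays of a time point (log2) for 9 immediate-early genes, HFC minus LFC on the left and HF75 minus HFC on the right. Day 10 and Week 12 on the left and Week 3 on the right, each with 1 array of the low set, carry the extreme values in opposite directions, except for Nr4a1 at Week 3.

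Over Week 3 to Week 18 the 9 genes were all higher in HFC than in LFC by the fitted means, and none passed the adjustment. In the limma fit of the 30 arrays of these weeks, 0 of 21092 genes (0%) passed and 1067 (5.06%) had an unadjusted p under 0.05, among them Fosb and Dusp1. Dusp1 was at 5.41 ± 0.36 in HFC and at 4.03 ± 1.48 in LFC (SD, n = 6 each), higher in HFC by 1.38 (SE 0.42, limma adjusted p 0.85) and at 5 of 6 time points. Fosb was at 3.07 ± 0.67 and 0.88 ± 2.86, higher by 2.19 (SE 0.98, limma adjusted p 0.85), also at 5 of 6 time points. The other 7 differences were between 0.26 (Junb) and 1.54 (Atf3). LFC of Week 12 carried much of these differences. The title of that array, unlike those of the others, names no time point. Without that week Fos differed by 0.27 in place of 1.47, Fosb by 1.05, and Junb and Nr4a1 turned to -0.41 and -0.33, while Dusp1 still differed by 0.86 (SE 0.34, limma adjusted p 0.381). With scan day as the block Fosb differed by 1.47 and Fos by 0.90. In the same comparison all 8 skeletal muscle markers were lower in HFC by the fitted means, with a median of -1.79 and none at an unadjusted p under 0.05. The 8 lymphocyte markers were also all lower (median -1.54, 1 at an unadjusted p under 0.05), as were 3 of 4 neutrophil markers (median -1.42), and the part of these cells was not tested.

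At the lower doses of KAL-1 none of the 9 genes passed in limma. For HF5 against HFC, 0 of 21092 genes (0%) passed and 287 (1.36%) had an unadjusted p under 0.05, while the immediate-early genes differed by -0.55 (Egr2, SE 0.80) to 0.25 (Junb, SE 0.74). For HF20 against HFC, 0 genes (0%) passed and 890 (4.22%) had an unadjusted p under 0.05, and the differences were -0.43 (Egr2) to 0.72 (Junb). No member had an unadjusted p under 0.05 in either. The standard errors were 0.42 to 0.99 on the log2 scale, which limits what 6 arrays a group could show. With normexp background correction 8085 genes passed for HF20 against HFC, none of the 9 among them, and the differences of the 9 ran from -1.03 (Egr2) to 0.065 (Junb), with Fos (-0.26), Egr1 (-0.47), Atf3 (-0.088) and Nr4a1 (-0.31) below 0. All 8 skeletal muscle markers were higher by the fitted means at both doses, with medians of 2.55 for HF5 and 1.79 for HF20. Of these, 3 and 2 had an unadjusted p under 0.05. All 8 lymphocyte markers were higher as well (medians 0.73 and 1.27). Of 6 macrophage markers 1 was higher at each dose (medians -0.30 and -0.66). Of 8 adipocyte markers, 3 were higher for HF5 and 2 for HF20 (medians -0.30 and -0.53). The part of these cells was not tested.

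For HF75 against HFC, 0 of 21092 genes (0%) passed in limma and 1059 (5.02%) had an unadjusted p under 0.05. Of the 9 genes, 8 were lower in HF75 by the fitted means and none passed. Fosb was at 1.18 ± 3.03 in HF75 and at 3.07 ± 0.67 in HFC (SD, n = 6 each), a difference of -1.90 (SE 0.98, limma adjusted p 0.866). The differences of Egr1 (-1.40) and Egr2 (-1.37) came next, and Nr4a1 differed by 0.38. Egr1, Ier2 and Dusp1 were lower in HF75 at 6 of 6 time points, and Dusp1 differed by -0.79 over all of them. Week 3 had the widest difference for 8 of the 9 genes, with -7.39 for Fosb, -7.30 for Egr2 and -6.57 for Egr1 but 1.103 for Nr4a1. Without Week 3 the differences were -0.80 for Fosb, -0.47 for Dusp1, -0.36 for Egr1 and -0.18 for Egr2, and Junb turned from -0.40 to 0.36. All 8 skeletal muscle markers were higher in HF75 by the fitted means, with a median of 3.10 and 4 at an unadjusted p under 0.05. Of the 6 macrophage markers 5 were lower (median -0.73, 2 at an unadjusted p under 0.05), and the part of these cells was not tested.

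The late arrays of HFC and LFC (Week 3 to Week 18, n = 12) were compared with the early ones (Day 1 to Week 0, n = 9). No scan day held both early and late arrays, so time and scan day cannot be told apart. With limma, 22 of 20534 genes (0.107%) passed and 3255 (15.9%) had an unadjusted p under 0.05. None of the 9 immediate-early genes passed, although all were higher late by the fitted means and 4 (Fosb, Junb, Egr1 and Ier2) had an unadjusted p under 0.05. Fos was at 4.09 ± 2.21 late and 1.39 ± 4.23 early, a difference of 2.69 (SE 1.35, limma adjusted p 0.329). Junb had the smallest adjusted p (0.197), with 6.48 ± 1.44 late, 4.05 ± 2.63 early and a difference of 2.39 (SE 0.84). Of the early arrays 4 belonged to the 6 low ones, and of the late arrays 1. Outside the low arrays, which these same genes set apart, the means were 4.68 late and 4.94 early for Fos and 5.26 and 5.44 for Atf3. Those of the other 7 genes were higher late, from 5.02 against 5.01 for Dusp1 to 6.84 against 6.23 for Junb, with no test. All 8 skeletal muscle markers were lower late by the fitted means, each with an unadjusted p under 0.05 and none past the adjustment, with a median of -3.02. All 4 neutrophil markers were higher late (median 1.43, 2 at an unadjusted p under 0.05), and the part of these cells was not tested. Without Day 6 the difference of Fos was 1.37, and that of Egr2 was 0.79 in place of 1.54. Over Week 3 to Week 18 the change per week was called for 20 of 21092 genes (0.0948%), with 3275 (15.5%) at an unadjusted p under 0.05, and neither set held any of the 9, with slopes from 0.00 (Nr4a1) to 0.10 (Egr1) per week on the log2 scale.

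The differences of other primary response genes between the same arrays are described with a list of 40. This list was chosen with earlier results of these data known and is no independent evidence of the split. All 40 were higher on average in the 33 arrays, with a median difference of 3.45 beside 0.00 over all tested genes, and 26 had no overlap between the sets (1.67% over all genes) while 14 overlapped. Zfp36, whose protein destabilises mRNAs, differed by 6.13, the cytokine signal inhibitor Socs3, saturated on 19 of the 33 arrays, by 5.93, and the transcription factor Myc by 4.51. Klf10 (1.13), Crem (1.24) and Dusp6 (1.44) were at the lower end. Nr4a2, a relative of Nr4a1, differed by 4.49 with no overlap. In the limma fits 0 of the 40 passed in each of the 7 comparisons. At an unadjusted p under 0.05 there were 20 in late against early, all higher late (15.9% over all genes). There were 6, all higher in HFC, for HFC against LFC over Week 3 to Week 18 (5.06%), 6 with a positive slope per week (15.5%) and 3, all lower, for HF75 against HFC (5.02%). Of the 6 low arrays, 4 were among the 9 early ones and 1 among the 12 late ones of HFC and LFC. The fits of Week 3 to Week 18 held the low arrays LFC of Week 12 and HF75 of Week 3. These counts are thus not independent of the split, and nothing is read from them.

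None of the listed kinases and constitutive factors upstream of these genes was higher on every one of the 33 arrays than on any of the 6 (1.67% over all genes). Of 16 genes such as Mapk3, Srf and Creb1, 7 were higher and 9 lower on average in the 33 arrays, with a median of -0.06. The only one without overlap was Mapk14, which encodes p38 alpha and was lower in the 33 by 1.21 (2.15% over all genes had no overlap in that direction). In the limma fits of 15 of them 0 passed in any comparison. At an unadjusted p under 0.05 there were 3 with a negative slope per week (15.5% over all genes). In late against early 1 was higher and 3 were lower late (15.9%). For HFC against LFC 1 was higher in HFC over 10 time points (5.86%) and 1 lower over Week 3 to Week 18 (5.06%).

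The cytokine and prostaglandin genes had the highest median difference of the lists examined. All 8 genes of the cytokine and prostaglandin list were higher on average in the 33 arrays, with a median difference of 6.40 and 6 without overlap (1.67% over all genes). Il6 was not well above background on any of the 6 arrays and was on all 33, where its level ran from 2.03 to 6.90, at least 2642-fold higher. Cxcl2, which encodes a neutrophil chemoattractant, was at least 419.8-fold higher. Both bounds take, on each of the 6 arrays, the higher of the lowest signal well above background and the probe's own signal. The measured means of Cxcl1 differed by 9.73, with the probe well above background on 4 of the 6 arrays and saturated on 2 of the 33. Those of Il1b differed by 6.43, with 5 of the 6 well above background. Among 7 heat shock genes the median was 1.36, from 6.50 for the inducible chaperone Hspa1a, saturated on 11 of the 33 arrays, to -1.68 for the mitochondrial Hspd1. Neither list had a gene that passed in the 7 limma comparisons. Of the cytokine and prostaglandin genes, 7 of 8 had an unadjusted p under 0.05 in late against early, all higher late (median 3.33, 15.9% over all genes), and 4 of 8 in HFC against LFC over Week 3 to Week 18, all higher in HFC (median 2.46, 5.06% over all genes). This list too was chosen with earlier results of these data known. Of the 6 low arrays, 4 were among the 9 early ones and 1, LFC of Week 12, among the 12 late ones. Both counts are thus not independent of the split, and nothing is read from them.

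**Figure D5:**
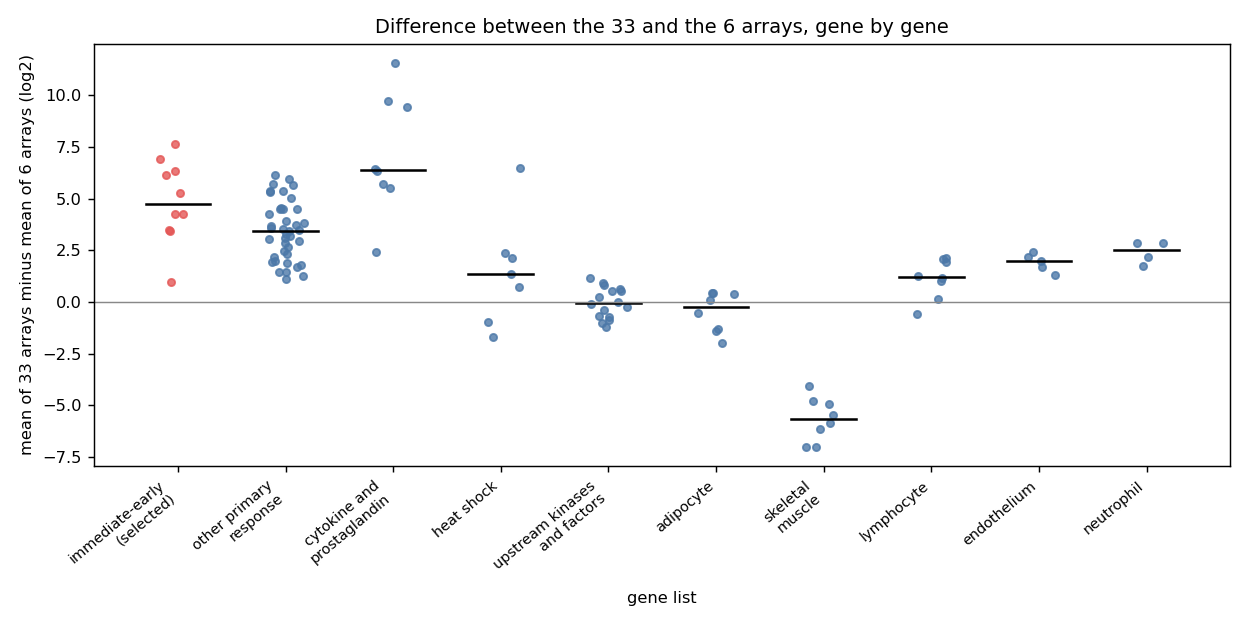
Mean of the 33 arrays minus mean of the 6 arrays (log2) for each gene, by list, with the median as a bar. Genes of the primary response and inflammatory early genes lie above 0, upstream kinases around 0 and skeletal muscle markers below 0 (median -5.67).

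The 10 genes most like the mean of the immediate-early genes over all 39 arrays were Ier5, Socs3, Il6, Zfp36, Csrnp1, Cxcl1, Cyr61, Hspa1a, Nfkbiz and Gem. Their correlations were between 0.95 and 0.98, and 47 of 20286 genes had one over 0.9. Over the 33 arrays alone the 10 most alike were Ccno, Ifrd1, Nfkbiz, LOC100046179, Gm2326, Gm4148, Hspa5, Tnni3, Ccnl1 and Zfp36, with correlations of 0.75 to 0.79. Nfkbiz and Zfp36 were in both lists. These likenesses are descriptions over arrays with the same scaling.

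Markers of other cell types moved with the split, and in bulk tissue a change in the number of cells and a change in RNA per cell cannot be told apart. All 8 skeletal muscle markers were lower on average in the 33 arrays, with a median difference of -5.67 and each saturated on 1 to 4 of the 6 arrays. Their mean level ran from 1.38 over a median of 4.67 to 7.36 on the 6 arrays and from -4.32 over a median of -1.44 to 5.96 on the 33. The 5 endothelial markers were all higher in the 33, with a median of 2.001 and mean levels of 0.66 to 1.53 on the 6 against 1.32 to 4.54. The 4 neutrophil markers were also higher, with a median of 2.51. Lymphocyte markers were higher for 7 of 8 (median 1.22), epithelial and skin markers for 5 of 6 (median 1.59) and macrophage markers for 5 of 6 (median 0.64). The 8 adipocyte markers had a median of -0.22 and went apart, with Plin1 (-1.98), Lep (-1.41) and Lipe (-1.31) lower on average in the 33 and 4 markers higher. Of those 4, Fabp4 was saturated on all 33 arrays and 5 of the 6, Cfd on 20 and 4, and Cidec on 6 and 4. Plin1 was saturated on 1 of the 33 and 3 of the 6, and Adipoq on 3 and 4. The differences of these 5 markers are set against the ceiling. Medians were -0.05 for red blood cell and 0.07 for fibroblast markers, with saturation on 23 of the 33 arrays for Hbb-b1 and Dcn. The part of these cell types in the levels of the immediate-early genes was not tested.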

How the data were processed

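Total RNA of mouse subcutaneous adipose tissue was measured on 39 Agilent 1-colour arrays. The deposited array files give the intensity of every spot in scanner units, background-subtracted and not normalised between arrays. Their headers name Feature Extraction 10.5.1.1, the submitters' processing notes 9.1. Flags of 0 or 1 mark spots well above background, saturated or outlying. The authors' series table holds, by its values, log2 ratios against the LFC array of the time point, except for Day 1, which has no LFC array and whose column could not be matched (correlation 0.147). It was used only to check labels.

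The log2 intensity minus the log2 75th percentile of the array was the level. Outlier spots were dropped, spots of a probe were averaged, and the probe with the highest mean stood for the gene. Saturated spots were kept at their value. Genes entered a fit if well above background on a number of arrays no lower than the size of its smallest group. limma 3.58.1 in R 4.3.3 was fitted to all genes with time point as a block for diets and diet as a covariate for late against early and for weeks (no block, so arrays of a time point count as independent), two-sided, with Benjamini-Hochberg adjustment and a threshold of 0.05. The scripts were tested on simulated data. The number of arrays limits precision.

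The genes, the lists and the split into 6 and 33 arrays were chosen with earlier results of these data known. The genes named beyond them are the 10 with the highest correlation to their mean over 39 and over 33 arrays, and of each list some with the largest and smallest differences. Myc and Nr4a2 were chosen after their values were seen. Alternatives were normexp background correction (offset 50), quantile normalisation, other filters and probe rules, outlier spots kept, other blocks, a per-gene test without shared spread, leaving out each time point, and the exchange of 2 Week 12 arrays. No coordinates of the array were combined with RefSeq's.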

Additional observations from a re-analysis of the deposited data

Results flagged for a closer look

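Dixon's test for a single far array was run in 40 sets (10 genes in LFC, HF5, HF20 and HF75), and chance gives about 1 such array in 20 sets. That rate says nothing about HF75 of Week 3, since the genes were chosen for being low on that array and others. HFC, with 11 arrays, was not examined. Such an array was found in 11 of the 40 sets. HF75 of Week 3 was the far array for 8 genes: Fos (-1.79), Fosb (-4.92), Junb (1.87), Egr1 (-1.06), Egr2 (-1.91), Atf3 (-0.22), Ier2 (0.40) and Dusp1 (2.54), and the nearest other HF75 array was at 4.35 for Fos and at 4.71 for Dusp1. In HF20, Fosb was far below the others at Week 12 (1.33, next 2.79). The diet label of that array is in doubt because it matches the HF5 column of the authors' table. Also in HF20, Egr3 was far above at Week 15 (-2.70, next -5.94). On the Week 15 array the share of spots well above background was the highest of all, and 4936 spots were flagged as outlying, against 474 at most elsewhere. In HF5, Egr2 was lowest at Week 9 (1.85, next 3.05).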

How the results depend on the processing

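No immediate-early gene passed in any of 1037 fits of a gene under an alternative, with a smallest adjusted p of 0.0964 (late against early, limma). The gap between the 6 and the 33 arrays was 3.45, 2.87 under normexp, 3.32 under quantile normalisation and 3.41 with all probes. Of the 40 differences between these sets under an alternative, 36 moved by less than 1 SD of the 33 arrays. Under normexp those of Fos, Fosb and Egr1 were 6.63, 5.15 and 5.84, and with all probes that of Ier2 was 3.51.

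The number of genes called for HF20 against HFC was 8085 under normexp in place of 0. For the change per week it was 1 under normexp, 4 with all probes, 3 without a filter, 1 under a random slide block and 0 (without Week 18) to 2894 (without Week 3) with a week left out (20 otherwise). For late against early it was 7 under normexp, 65 under quantile normalisation, 7 without a filter, 7 with the filter on every array and 2 (without Day 10 or Week 15) to 68 (without Week 6) with a time point left out (22 otherwise). The counts of the other comparisons stayed at 0. The cause was not tested.

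Some values given for single genes changed sign. With a time point left out, Junb in HFC against LFC over 10 time points lay between -0.92 and 0.090 (positive without Day 10), and over Week 3 to Week 18 between -0.41 (without Week 12) and 0.53. Nr4a1 in the latter comparison lay between -0.33 (without Week 12) and 0.70, and Junb in HF75 against HFC between -0.67 and 0.36 (without Week 3). Under quantile normalisation Junb in HF5 against HFC was -0.029 and Nr4a1 in HF75 against HFC -0.028. The change of Nr4a1 per week was -0.0017 under normexp, -0.0025 under quantile normalisation and between -0.052 (without Week 18) and 0.024 with a week left out. When HF5 and HF20 traded their Week 12 arrays, Junb differed from HFC by 0.46 in HF5 and 0.50 in HF20, Egr2 by -0.54 and -0.45, and no gene was called. The random slide block could not be fitted for HFC against LFC over 10 time points or for late against early. The diets were paired by time point, which is the block of the diet fits, and without this block the number of genes called stayed at 0 in all 5 diet comparisons.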
